A study of Mus musculus with 7 samples.

Results

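The 78 genes described here encode proteins of the mitochondrial ribosome, measured by RNA sequencing of sorted mouse β-cells. They are the rows of the count table whose symbol starts with Mrpl or Mrps followed by a digit, without pseudogene symbols, at a mean of at least 1 CPM over the 7 libraries. Of 35013 symbols in the table, 84 matched and 6 of these were pseudogenes. None of the remaining 78 fell below the minimum, and all of them passed the filter on low counts in each comparison. By symbol, 49 belong to the large subunit (Mrpl) and 29 to the small subunit (Mrps). CPM here are counts scaled to a common library size with TMM factors, which set the bulk of the genes level between libraries.

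Mitochondria carry a small genome that encodes core subunits of the respiratory chain and of ATP synthase, and they translate these messages on ribosomes of their own. The RNAs of that ribosome come from mitochondrial DNA, whereas its proteins are encoded in the nucleus, made in the cytosol and imported. The small subunit binds and decodes the message, and the large subunit joins the amino acids and releases the chain through its exit tunnel. Some of the proteins have counterparts in every kind of ribosome, others only in bacteria, and the rest are particular to mitochondria. In β-cells, ATP from the respiratory chain couples glucose uptake to insulin release.

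The lean controls (db/+) comprised 3 mice, the diabetic controls (db/db) 2 mice and the knockout mice (KO_db/db) 2 mice, with 1 library per mouse. According to the study's methods, lean mice were heterozygous for the leptin receptor mutation (Lepr db/+) and carried RIP-Cre Herr, in which the insulin promoter drives Cre, with a reporter allele (tdT fl/+) and a floxed Aldh1a3 allele (Aldh1a3 fl/+). The db/db controls had this same Cre, reporter and Aldh1a3 fl/+ background with the mutation on both chromosomes (Lepr db/db). KO_db/db mice differed from the db/db controls in having both Aldh1a3 alleles floxed (Aldh1a3 fl/fl). All 3 groups therefore carried Cre and tdT, and both control groups still had a floxed allele of the gene under study. The study used adult mice of either sex and fasted them before islet isolation.

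Library totals were between 27496645 and 35852785 estimated counts. Aldh1a3, an aldehyde dehydrogenase induced in failing β-cells, stood at 0.205, 0.0727 and 0.584 CPM in the db/+ mice, at 99.3 and 195 CPM in the db/db mice, and at 4.93 and 7.90 CPM in the KO_db/db mice, so the targeted gene went with the labels. All 10 β-cell markers examined were detected, with a summed level of 395500 to 439500 CPM in db/+, 202900 to 227100 in db/db and 226000 to 295500 in KO_db/db. Acinar enzyme genes took 17.9% of the counts in KO_db/db mouse 1 and 2.02% in KO_db/db mouse 2, against at most 0.0579% in any control library. Insulin genes took 32.2 to 36.1% of the counts in db/+ and 21.8 to 24.4% elsewhere. Y-linked genes summed to 2911 counts in db/+ mouse 3 and to 20 to 79 counts in each of the other libraries. By these counts db/+ mouse 3 differed in sex from the other mice, so sex was not balanced in the comparisons with db/+. The labels give no sex. In these bulk samples, fewer cells of a type and less RNA per cell cannot be told apart.

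The promoters of these genes carried short recognition sequences of general housekeeping factors more often than promoters at large. RefSeq promoter windows (GRCm38.p6, 250 bases before to 50 after the start) were found for 69 of the 78 genes and were searched on both strands. The ETS letters CCGGAAG occurred in 36.2% of them and in 9.12% of the 27025 promoters in the table. The YY1 letters AAGATGGC occurred in 17.4% against 2.88%, and the NRF1 letters GCGCATGC or GCATGCGC, which overlap each other, in 11.6% against 2.8%. The ZNF143 letters TACANNTCC, added after the promoters had been read, occurred in 7.25% against 4.66%. The TATA letters TATAAA occurred in 5.8% against 14.2%. The median GC content was 58.3% in these promoters and 52.7% in all, and its part in these shares was not tested. Among the 12 promoters of genes that were lower in both diabetic groups than in db/+ (named further on), the ETS letters occurred in 33.3%, and among the 44 promoters of genes lower in neither they occurred in 34.1%. A match of letters is a description of the sequence and not a binding site.

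The windows printed here are the 150 bases before the start of 5 genes that were called lower than in db/+ in at least 1 comparison, chosen to show each kind of match and a window with none. Capitals mark the matched letters, and the gene's own strand is written 5′ to 3′. Mrpl33 has the NRF1 letters at chr5:31613801-31613950 (plus strand), Mrpl36 the reverse complement of the YY1 letters at chr13:73330859-73331008 (plus strand), Mrps22 the ETS and ZNF143 letters at chr9:98601680-98601829 (minus strand), and Mrpl42 the ZNF143 letters at chr10:95501950-95502099 (minus strand). Mrps25, at chr6:92184024-92184173 (minus strand), has none of them in these 150 bases. The shares given above were counted over the full 300 bases of each promoter.
Mrpl33: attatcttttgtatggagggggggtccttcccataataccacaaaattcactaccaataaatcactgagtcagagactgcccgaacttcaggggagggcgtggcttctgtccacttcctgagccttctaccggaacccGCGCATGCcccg
Mrpl36: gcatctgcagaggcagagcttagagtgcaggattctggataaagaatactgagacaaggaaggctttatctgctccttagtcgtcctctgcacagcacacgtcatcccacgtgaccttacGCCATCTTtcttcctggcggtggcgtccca
Mrps22: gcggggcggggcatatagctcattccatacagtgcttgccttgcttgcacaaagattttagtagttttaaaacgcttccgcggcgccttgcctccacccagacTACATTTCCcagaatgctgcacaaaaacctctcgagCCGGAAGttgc
Mrpl42: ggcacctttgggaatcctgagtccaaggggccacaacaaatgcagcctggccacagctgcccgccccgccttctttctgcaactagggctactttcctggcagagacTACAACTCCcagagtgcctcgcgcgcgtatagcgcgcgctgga
Mrps25: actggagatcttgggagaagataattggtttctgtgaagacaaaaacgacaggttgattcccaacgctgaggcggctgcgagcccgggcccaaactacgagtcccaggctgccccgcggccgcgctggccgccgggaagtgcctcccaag

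The 78 genes lie on 17 chromosomes, and chromosome 11 holds the most, 11 of them. For 19 of them (24.4%) a divergent protein-coding gene starts at most 1000 bases upstream or overlaps the start by at most 100 bases. The share was 7.23% of the 21951 protein-coding genes in the annotation. Divergent pairs with a longer overlap, such as Mrpl46 and Mrps11, were not counted. Mrpl49, for example, lies 59 bases from the start of Fau, a cytosolic ribosomal protein gene, and Mrpl36 overlaps the start of Ndufs6, which encodes a complex I subunit, by 29 bases. Mrps12 starts 172 bases from Sars2, the mitochondrial seryl-tRNA synthetase gene.

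Per kilobase of transcript, most of the genes were expressed at moderate levels of the same order. The highest mean levels over all libraries were 47.0 CPM per kilobase for Mrps21, 46.4 for Mrps33 and 36.9 for Mrpl42. The lowest were 0.999 CPM per kilobase for Mrps25, 1.84 for Mrpl19 and 2.26 for Mrpl23. The low values of Mrps25 and Mrpl19 go with annotated transcripts of 6073 and 5000 bases, and the median over the 78 genes was 1302 bases. Of the 31-base words of Mrps25, 74.6% also occur in other genes, 58% of them in the neighbouring gene Nr2c2 alone. Mrpl23 shares 77% with its pseudogene Mrpl23-ps1, and Mrpl19 shares 39% with Gcfc2. Mrpl53, listed further on, shares 100% with Gm42688. Of the 78 genes, 6 share over 50% of these words. The split of reads between such genes is uncertain.

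Summed over the 78 genes in TMM-scaled CPM, mitochondrial ribosomal protein mRNA was highest in lean β-cells and lowest in knockout β-cells. The sum was 1482, 1440 and 1354 CPM in the db/+ mice, 1319 and 1182 CPM in the db/db mice, and 1098 and 1167 CPM in the KO_db/db mice. The 3 groups did not overlap, although db/db mouse 1 was close to db/+ mouse 3. The group means were 1425 ± 65.3 (SD, n = 3) in db/+, 1250 ± 96.5 (n = 2) in db/db and 1132 ± 48.9 (n = 2) in KO_db/db. As log2 ratios of these means, db/db stood at -0.19 and KO_db/db at -0.33 relative to db/+, and KO_db/db at -0.14 relative to db/db. As a share of all counts, the 78 genes took 0.129, 0.126 and 0.119% in db/+, 0.157 and 0.145% in db/db, and 0.098 and 0.134% in KO_db/db. On that scale, which TMM factors do not enter, db/db was highest. KO_db/db mouse 2 was then above every db/+ library, and KO_db/db mouse 1, with 17.9% acinar counts, was the lowest.

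**Figure D1:**
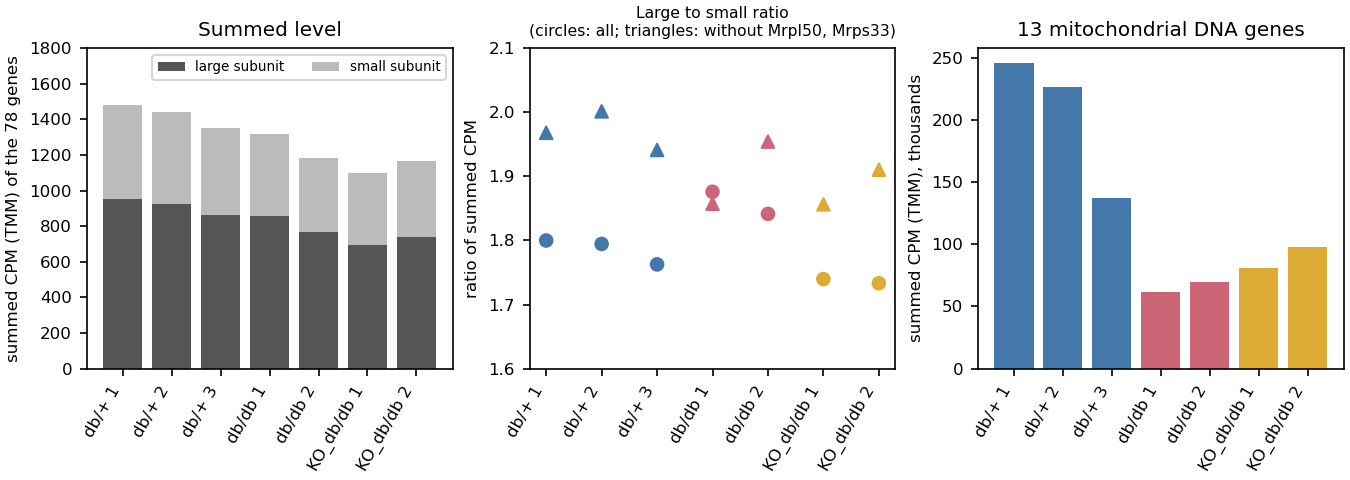
Left, summed CPM (TMM-scaled) of the 78 genes in each of the 7 libraries, stacked by subunit, from 1482 in db/+ mouse 1 to 1098 in KO_db/db mouse 1. Middle, the ratio of large to small subunit CPM with all genes (circles, 1.73 to 1.88) and without Mrpl50 and Mrps33 (triangles), on an axis that does not start at 0. Right, summed CPM of the 13 protein-coding genes of mitochondrial DNA, where all 3 db/+ libraries are above the other 4 (axis in units of 1000 CPM).

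The messages that these ribosomes translate were lower to a larger extent. The 13 protein-coding genes of mitochondrial DNA summed to 245444, 226836 and 137339 CPM in db/+, 61806 and 69519 CPM in db/db, and 80796 and 98184 CPM in KO_db/db. The groups did not overlap, and db/+ mouse 3 was the lowest of the lean mice. All 13 passed the test as lower in db/db than in db/+, with log2 fold changes around a median of -1.63, and 12 of 13 as lower in KO_db/db (median -1.11). Between the diabetic groups, all 13 fold changes were positive in KO_db/db relative to db/db (median 0.38), and edgeR called none of them, with 1 at an unadjusted p under 0.05.

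In db/db against db/+ β-cells, edgeR's quasi-likelihood test (Benjamini-Hochberg over all genes tested, threshold 0.05) called 15 of the 78 genes lower and none higher. That is 19.2% called lower against 18% of all 13406 genes tested, which is near the background. Of all genes, 19.9% were called higher and 37.8% were called in either direction. At an unadjusted p under 0.05, 25 of the 78 (32.1%) differed in edgeR's test, 2 of them higher, against 48.2% of all genes. DESeq2 called 19 of the 78 lower and none higher, and 2673 of all genes lower and 2962 higher. The median log2 fold change was -0.17 for the 78 genes and 0.0064 for all genes, and 55 of the 78 values were negative. With library size alone in place of TMM factors the median of all genes moved to 0.50 and that of the members to 0.32, which turns its sign and leaves the members 0.17 below all genes, as in the TMM fit. On that scale 25 of the 78 were called higher (32.1%) and 2 lower (2.56%), against 44.5 and 5.97% of all genes.

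The largest difference was in Mrpl36, a small zinc-binding protein of the large subunit with a bacterial counterpart. Its level was 27.9, 25.6 and 22.8 CPM in db/+, 11.3 and 8.75 CPM in db/db, and 9.85 and 11.7 CPM in KO_db/db. Both diabetic groups lay below every lean library and overlapped each other. Mrpl36 fell by 1.37 ± 0.17 (SE) on the log2 scale in db/db (edgeR adjusted p = 0.00178) and by 1.23 ± 0.14 in KO_db/db (adjusted p = 0.00161) relative to db/+.

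Mrpl33, another small bacterial-type protein of the large subunit, followed closely. It measured 14.2, 14.0 and 15.7 CPM in db/+, 7.85 and 6.88 CPM in db/db, and 6.43 and 6.88 CPM in KO_db/db. The lean mice were about level with each other and well above the rest. The log2 fold change was -1.02 ± 0.16 in db/db (edgeR adjusted p = 0.00358) and -1.13 ± 0.14 in KO_db/db (adjusted p = 0.00205). Mrpl36 and Mrpl33 passed the threshold in both comparisons under every one of the 15 alternatives.

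Mrps25, a protein of the small subunit found only in mitochondria, measured 10.2, 11 and 7.11 CPM in db/+, 5.86 and 2.69 CPM in db/db, and 3.34 and 2.29 CPM in KO_db/db. The db/db mice differed from each other by a wide margin, and mouse 1 lay near the lowest lean value. As stated above, the split of reads between Mrps25 and genes that share its sequence is uncertain. The log2 fold change was -1.17 ± 0.36 in db/db (edgeR adjusted p = 0.0419) and -1.75 ± 0.28 in KO_db/db (adjusted p = 0.00476). The call in db/db was lost without db/db mouse 2 (log2 fold change -0.72, adjusted p = 0.122), without db/+ mouse 1 (adjusted p = 0.105) without db/+ mouse 2 (adjusted p = 0.115) and with library size alone (adjusted p = 0.147).

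Mrps36 carries a ribosomal symbol but is known as a subunit of the 2-oxoglutarate dehydrogenase complex of the citric acid cycle. It measured 11.2, 13.8 and 11.3 CPM in db/+, 5.92 and 7.09 CPM in db/db, and 6.68 and 7.54 CPM in KO_db/db. The log2 fold change was -0.92 ± 0.18 in db/db (edgeR adjusted p = 0.0093) and -0.76 ± 0.17 in KO_db/db (adjusted p = 0.0132). Both calls were lost with library size alone (edgeR adjusted p = 0.0955 and 0.141), and that in KO_db/db also without KO_db/db mouse 1 (adjusted p = 0.0612).

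**Figure D2:**
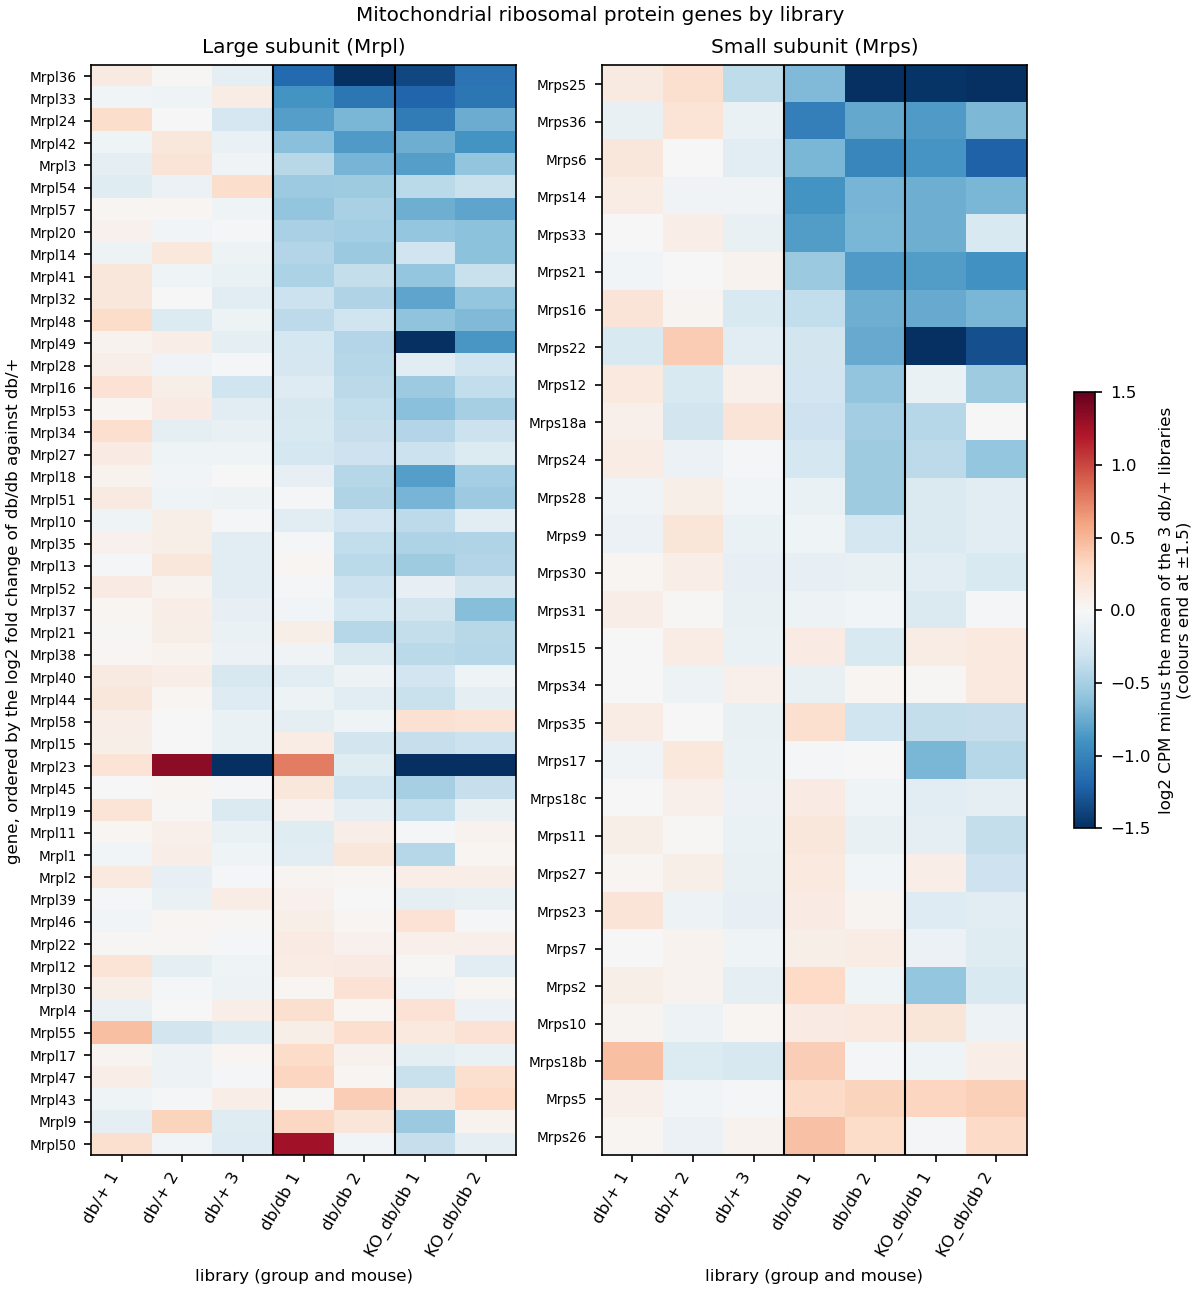
Each of the 78 genes (rows, 49 large and 29 small subunit symbols) in each of the 7 libraries (columns), coloured by log2 CPM minus the mean of the 3 db/+ libraries, with colours ending at 1.5 in either direction. Genes are ordered by the log2 fold change of db/db against db/+, from Mrpl36 (-1.37) to Mrpl50 (0.71) on the left and from Mrps25 (-1.17) to Mrps26 (0.33) on the right.

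The other 11 genes lower in db/db were Mrpl3, Mrpl14, Mrpl20, Mrpl24, Mrpl42, Mrpl54, Mrpl57, Mrps6, Mrps14, Mrps21 and Mrps33, with log2 fold changes from -0.86 (Mrps6) to -0.52 (Mrpl14). Mrpl3 belongs to the core of the large subunit near the site of peptide bond formation, and Mrpl24 lies at the exit tunnel. Leaving out db/+ mouse 1 reduced the 15 calls to 9 (11.5%) and leaving out db/db mouse 2 to 10 (12.8%), while the share of all genes called lower went to 11% and to 14.3%. The median of the members ranged from -0.32 without db/db mouse 1 to -0.11 without db/db mouse 2.

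In KO_db/db against db/+ β-cells, edgeR called 25 of the 78 genes lower and 1 higher. The share called lower was 32.1%, against 17.9% of all 13228 genes tested, and the share of all genes called higher was 20.5% (38.4% in either direction). The median log2 fold change was -0.29 for the 78 genes and -0.0034 for all genes, and 65 of the 78 values were negative. Over the 25 genes called lower, the values ran from -1.75 (Mrps25) to -0.41 (Mrpl38). Without KO_db/db mouse 1, the library with 17.9% acinar counts, 13 of the 78 (16.7%) and 9.42% of all genes were called lower, and the members' median was -0.31. Without KO_db/db mouse 2, 20 of the 78 (25.6%) and 13.4% of all genes were called lower, and the members' median was -0.36. With insulin, mitochondrial DNA, acinar and Reg genes removed and library size alone, 24 (30.8%) and 17% of all genes were called lower. With library size alone over all genes, 8 of the 78 (10.3%) and 4.91% of all genes were called lower, and the members' median was -0.08 where that of all genes was 0.21.

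Mrps22, a mitochondria-specific protein of the small subunit, measured 5.94, 9.05 and 6.26 CPM in db/+, 5.75 and 4.11 CPM in db/db, and 1.91 and 2.80 CPM in KO_db/db. The knockout libraries were below all others. The log2 fold change in KO_db/db was -1.57 ± 0.29 relative to db/+ (edgeR adjusted p = 0.00769) and -1.04 ± 0.35 relative to db/db (adjusted p = 0.191). Mrpl49, a mitochondria-specific protein of the large subunit, measured 18.2, 18.8 and 15.8 CPM in db/+, 14.7 and 12.9 CPM in db/db, and 5.74 and 9.58 CPM in KO_db/db. Its log2 fold change was -1.18 ± 0.23 relative to db/+ (edgeR adjusted p = 0.00851) and -0.83 ± 0.28 relative to db/db (adjusted p = 0.196). Both genes had the same order of groups without overlap, and in neither did the difference between the diabetic groups pass the threshold.

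Mrps5, a small subunit protein at the channel where the message enters, was called higher. It measured 19.8, 18.3 and 18.4 CPM in db/+, 23 and 23.7 CPM in db/db, and 23.6 and 24.1 CPM in KO_db/db. The log2 fold change was 0.35 ± 0.10 in KO_db/db (edgeR adjusted p = 0.0344) and 0.28 ± 0.12 in db/db (adjusted p = 0.102). The call in KO_db/db was lost when any 1 library was left out, with adjusted p from 0.0721 to 0.117.

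**Figure D3:**
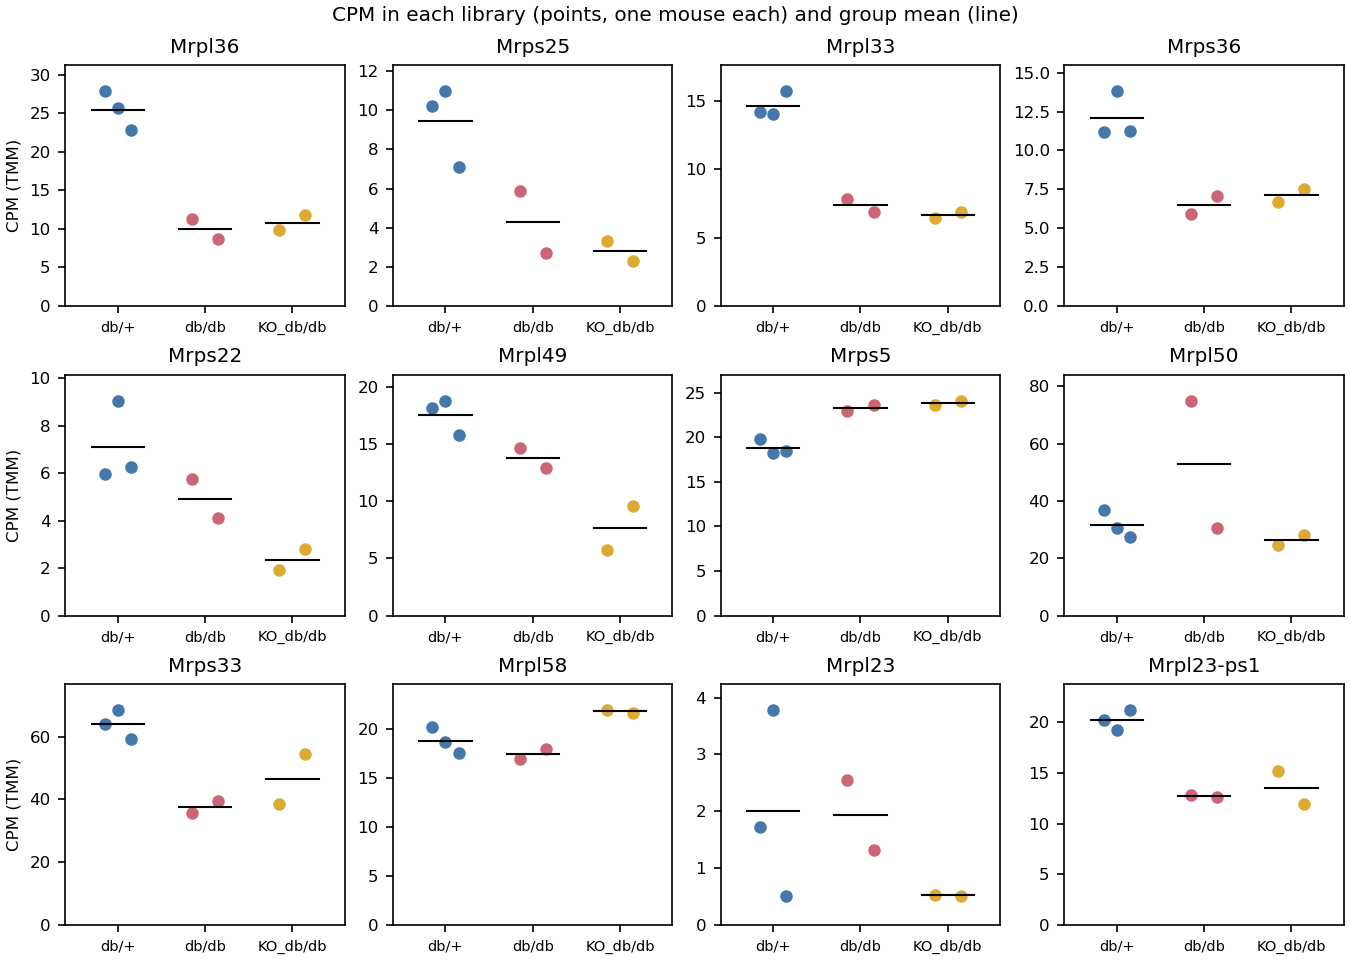
CPM (TMM-scaled, axes from 0) of 11 of the 78 genes and the pseudogene Mrpl23-ps1 in each library (points) with the group mean (line). Mrpl36, Mrpl33, Mrps36 and Mrps25 are lower in both diabetic groups than in db/+, Mrps22 and Mrpl49 are lowest in KO_db/db, and Mrpl50 is high in db/db mouse 1 alone (75 CPM).

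The comparisons of db/db and of KO_db/db with db/+ used the same 3 lean libraries. The 12 genes called lower in both were 80% of the 15 genes called in db/db and 48% of the 25 called in KO_db/db. They were Mrpl3, Mrpl20, Mrpl24, Mrpl33, Mrpl36, Mrpl42, Mrpl57, Mrps6, Mrps14, Mrps21, Mrps25 and Mrps36. The matching shares were not computed over all genes tested. Whether the overlap was larger here than among genes at large was therefore not tested. Called in db/db alone were Mrpl14, Mrpl54 and Mrps33, and called in KO_db/db alone were Mrpl13, Mrpl18, Mrpl32, Mrpl38, Mrpl41, Mrpl48, Mrpl49, Mrpl51, Mrpl53, Mrps16, Mrps17, Mrps22 and Mrps24. A call in 1 comparison and not the other is not a difference between the diabetic groups, for which the direct comparison follows.

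In KO_db/db against db/db β-cells, edgeR called none of the 78 genes, against 0.319% of all 13486 genes tested (0.126% higher and 0.193% lower). At an unadjusted p under 0.05 there were 4 of the 78, namely Mrpl23, Mrpl49, Mrps17 and Mrps22, all lower, which is 5.13% against 20.9% of all genes. DESeq2 called none of the 78 and 1374 of all genes. The median log2 fold change was -0.14 for the 78 genes and -0.02 for all genes, and 58 of the 78 were negative. The median ranged from -0.17 without db/db mouse 2 to -0.07 without db/db mouse 1, and with library size alone it was -0.38 against -0.28 for all genes.

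The largest positive values in this comparison were small. Mrpl58, the peptidyl-tRNA hydrolase that frees stalled mitochondrial ribosomes, measured 17.0 and 18.0 CPM in db/db and 22.0 and 21.7 CPM in KO_db/db, with a log2 fold change of 0.33 ± 0.15 (edgeR adjusted p = 0.273). Mrps33 measured 35.8 and 39.6 CPM in db/db and 38.5 and 54.3 CPM in KO_db/db (log2 fold change 0.31 ± 0.20, adjusted p = 0.413), and its db/+ levels of 64.0, 68.4 and 59.2 CPM were above those of all other libraries. Mrps18a followed at 0.23 ± 0.20 (adjusted p = 0.538).

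The lowest values in this comparison were those of Mrpl23, of Mrps22 (-1.04, described above) and of Mrpl50, and those of Mrpl23 and Mrpl50 came with doubts about the measurement. Mrpl23, a protein of the exit tunnel, was at 1.72, 3.78 and 0.516 CPM in db/+, 2.55 and 1.32 CPM in db/db, and 0.529 and 0.511 CPM in KO_db/db, so that the lean libraries spanned nearly the whole range. Its log2 fold change was -1.87 ± 0.55 relative to db/db (edgeR adjusted p = 0.166). Its pseudogene Mrpl23-ps1 was at 20.2, 19.3 and 21.2 CPM in db/+, 12.9 and 12.6 CPM in db/db, and 15.1 and 12 CPM in KO_db/db, and with the counts of both added the log2 fold change relative to db/db was -0.05. With pseudogene copies added to Mrpl23 and Mrpl48, 17 of the 78 genes (21.8%) were called lower in db/db against db/+. In KO_db/db against db/+ these were 26 (33.3%), and the shares of all genes were 18 and 17.9%. Mrpl50 was at 37.0, 30.4 and 27.4 CPM in db/+, 75 and 30.5 CPM in db/db, and 24.8 and 28.2 CPM in KO_db/db. Its log2 fold change of -0.98 ± 0.42 (adjusted p = 0.262) rests on db/db mouse 1, and without that library it was -0.19 (adjusted p = 0.673).

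The median of the large subunit genes was below that of the small subunit genes in both comparisons with db/+, by a margin that was not tested, and about level with it between the diabetic groups. For db/db relative to db/+ it was -0.18 over the 49 large subunit genes, with 9 called lower (18.4%), and -0.08 over the 29 small subunit genes, with 6 called lower (20.7%), against 18% of all genes. For KO_db/db relative to db/+ the medians were -0.38 and -0.20, with 16 and 9 called lower (32.7 and 31%, against 17.9% of all genes), and for KO_db/db relative to db/db they were -0.14 and -0.13. The differences of the medians, large minus small, were -0.10, -0.18 and -0.0060 in this order. Leaving out 1 library at a time, they ranged from -0.13 to -0.0062, from -0.18 to -0.10, and from -0.13 to 0.05. The first was -0.0062 without db/db mouse 2. The last turned its sign without db/db mouse 2 (0.05) and without KO_db/db mouse 1 (0.04).

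The ratio of summed large to small subunit CPM was 1.80, 1.79 and 1.76 in db/+, 1.88 and 1.84 in db/db, and 1.74 and 1.73 in KO_db/db. The groups did not overlap with all genes included. Without Mrpl50 the ratio was 1.73, 1.74 and 1.71 in db/+ and 1.71 and 1.77 in db/db, and without Mrps33, which adds the most CPM to the small subunit sum, it was 2.05, 2.07 and 2.00 in db/+ and 2.03 and 2.04 in db/db. In both cases the lean and db/db libraries overlapped. The KO_db/db ratios were 1.68 and 1.67 without Mrpl50 and 1.92 and 1.99 without Mrps33, below every lean library in both cases. Without both genes they were 1.86 and 1.91, against 1.97, 2.00 and 1.94 in db/+. The db/db ratios without both genes were 1.86 and 1.95, so db/db overlapped both the lean and the KO_db/db libraries.

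Some symbols do not match the place of the protein in the ribosome structure. Mrps30 and Mrps18a are large subunit proteins in the mammalian structure despite their symbols, and Mrps36 is no part of it. With these placed by structure, the medians in KO_db/db against db/+ were -0.33 over 51 large and -0.21 over 26 small subunit genes, and the difference went from -0.18 to -0.12, while in KO_db/db against db/db it turned from -0.0060 to 0.03. The ratio of summed CPM by structure was 2.07, 2.06 and 2.06 in db/+, 2.12 and 2.1 in db/db, and 2.00 and 2.03 in KO_db/db, without overlap of the groups. These sums include Mrpl50 and Mrps33, without which the groups by symbol overlapped. The ratio by structure was not computed without these genes, so its separation of the groups may depend on them. Mrps30 itself measured 14.3, 15.1 and 12.9 CPM in db/+, 12.9 and 13 CPM in db/db, and 12.7 and 12.1 CPM in KO_db/db, and was called in none of the comparisons.

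None of the Mrps18 paralogues passed the test in any comparison. Mrps18a measured 25.4, 20.0 and 27.6 CPM in db/+, 19.5 and 16.7 CPM in db/db, and 18.0 and 24.2 CPM in KO_db/db. Mrps18b, of which 64.3% of the 31-base words also occur in other genes, ranged from 11.5 to 18.6 CPM over all libraries, and Mrps18c from 11.3 to 13.9 CPM. Their log2 fold changes in db/db against db/+ were -0.45 ± 0.17, 0.13 ± 0.25 and 0.00 ± 0.14, in this order (edgeR adjusted p = 0.0816, 0.725 and 0.994).

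By ancestry, the 19 genes with bacterial counterparts had the lowest medians. Relative to db/+, the db/db median was -0.32 on the log2 scale over these 19, with 5 called lower. It was -0.07 over the 27 genes with counterparts in all ribosomes, with 4 called lower, and -0.15 over the 31 mitochondria-specific genes, with 5 called lower. In this order the shares called lower were 26.3, 14.8 and 16.1%, against 18% of all genes. In KO_db/db, again relative to db/+, the medians were -0.38, -0.27 and -0.24, with 7, 7 and 10 called lower (36.8, 25.9 and 32.3%, against 17.9% of all genes). The 3 genes of the stalk, which recruits elongation factors (Mrpl10, Mrpl11 and Mrpl12), had no call in any comparison. Of the 6 genes of the central protuberance, where the subunits meet, 3 were called lower in KO_db/db against db/+ (Mrpl18, Mrpl38 and Mrpl48) and none in db/db. All 3 calls were lost without KO_db/db mouse 1 (edgeR adjusted p = 0.0897, 0.0711 and 0.0754, in this order). The differences between these classes were not tested.

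Among the genes that serve the ribosome, several lists had lower medians than the ribosomal proteins. Of all genes tested, 18% were called lower in db/db and 17.9% in KO_db/db, each against db/+. The 5 mitochondrial ribosomal proteins without an Mrp symbol had log2 fold changes with a median of -0.50 (3 called lower) for db/db and -0.53 (4 called lower) for KO_db/db, both relative to db/+. Gadd45gip1, a large subunit protein at the exit tunnel, was at 29.7, 29.5 and 26.4 CPM in db/+, 15.8 and 12.5 CPM in db/db, and 16.0 and 16.9 CPM in KO_db/db. It fell by 1.04 ± 0.15 on the log2 scale in db/db (edgeR adjusted p = 0.00269) and by 0.79 ± 0.11 in KO_db/db (adjusted p = 0.00281). Chchd1, of the small subunit, changed by -0.78 ± 0.17 (adjusted p = 0.0126) and -0.54 ± 0.17 (adjusted p = 0.0457).

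Of 20 translation factors, 8 were called lower and 1 higher in db/db against db/+, with a median log2 fold change of -0.41, and 7 lower and none higher in KO_db/db against db/+, with a median of -0.40. The shares called lower were 40 and 35%, against 18 and 17.9% of all genes. Gatb, a subunit of the enzyme that makes glutaminyl-tRNA in mitochondria, was at 7.13, 7.16 and 5.84 CPM in db/+, 2.01 and 1.90 CPM in db/db, and 4.72 and 3.35 CPM in KO_db/db. Its log2 fold change was -1.80 ± 0.22 in db/db (edgeR adjusted p = 0.00183) and -0.73 ± 0.23 in KO_db/db (adjusted p = 0.0441). Directly compared, KO_db/db stood 1.05 ± 0.34 above db/db (adjusted p = 0.182). Oxa1l, which inserts new chains into the inner membrane, was the translation factor called higher in db/db, at 0.50 ± 0.12 (adjusted p = 0.0169).

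Of 19 mitochondrial aminoacyl-tRNA synthetases, 7 were called lower and 1 higher in db/db, with a median of -0.54, and 4 lower and 1 higher in KO_db/db, with a median of -0.33, both against db/+. The shares called lower were 36.8% in db/db and 21.1% in KO_db/db, the latter near the 17.9% of all genes. Nars2, which charges asparaginyl-tRNA, changed by -1.68 ± 0.27 in db/db (edgeR adjusted p = 0.00423) and by -1.13 ± 0.25 in KO_db/db (adjusted p = 0.0141). Of 28 assembly factors, 8 (28.6%) were called lower and none higher in db/db (median -0.19), and 10 (35.7%) lower and 1 higher in KO_db/db (median -0.52). Tfb1m and Mettl15, which methylate the RNA of the small subunit, were lower in both, with log2 fold changes of -1.03 ± 0.23 and -1.51 ± 0.27 in db/db (adjusted p = 0.0136 and 0.00648) and of -0.86 ± 0.22 and -1.21 ± 0.25 in KO_db/db (adjusted p = 0.0235 and 0.011).

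Of the 16 genes of mitochondrial transcription and its nuclear regulators, 4 (25%) were called higher and none lower in each comparison with db/+, where 19.9 and 20.5% of all genes were called higher. Their median log2 fold changes were 0.16 in db/db and 0.31 in KO_db/db, with 5 and 6 of the 16 values negative. Ppargc1a, the coactivator of mitochondrial biogenesis, was at 0.696, 0.4 and 0.756 CPM in db/+, 9.92 and 3.15 CPM in db/db, and 3.01 and 1.46 CPM in KO_db/db. It rose by 3.36 ± 0.55 on the log2 scale in db/db (edgeR adjusted p = 0.00449) and by 1.85 ± 0.51 in KO_db/db (adjusted p = 0.029). Among 17 protein quality control genes 5 (29.4%) were called lower and 1 higher in db/db, and 3 (17.6%) lower in KO_db/db. Of all genes, 18 and 17.9% were called lower, so the KO_db/db share was near the background. Trap1, a mitochondrial chaperone, was at 28.3, 25.8 and 26.3 CPM in db/+, 13.1 and 12.3 CPM in db/db, and 28.5 and 20.6 CPM in KO_db/db. It fell by 1.1 ± 0.12 on the log2 scale in db/db (edgeR adjusted p = 0.00139), and KO_db/db stood 0.96 ± 0.21 above db/db (adjusted p = 0.116).

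The nuclear genes of the respiratory chain, whose products join those made on mitochondrial ribosomes, had medians of -0.34 for db/db (37 of 76 called lower) and -0.35 for KO_db/db (41 of 77 called lower) on the log2 scale, relative to db/+. The shares called lower were 48.7 and 53.2%, against 18 and 17.9% of all genes. The 85 cytosolic ribosomal protein genes tested had medians of 0.13 in db/db and -0.18 in KO_db/db relative to db/+, with 2 and 14 called lower (2.35 and 16.5%) and 8 and 2 called higher. In KO_db/db against db/db edgeR called 1 cytosolic ribosomal protein gene, which was lower. It called no respiratory chain gene, ribosomal protein without an Mrp symbol, translation factor, synthetase, assembly factor, regulator or quality control gene in that comparison, where 3, 0, 2, 3, 0, 0 and 4 of them, in this order, had an unadjusted p under 0.05.

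**Figure D4:**
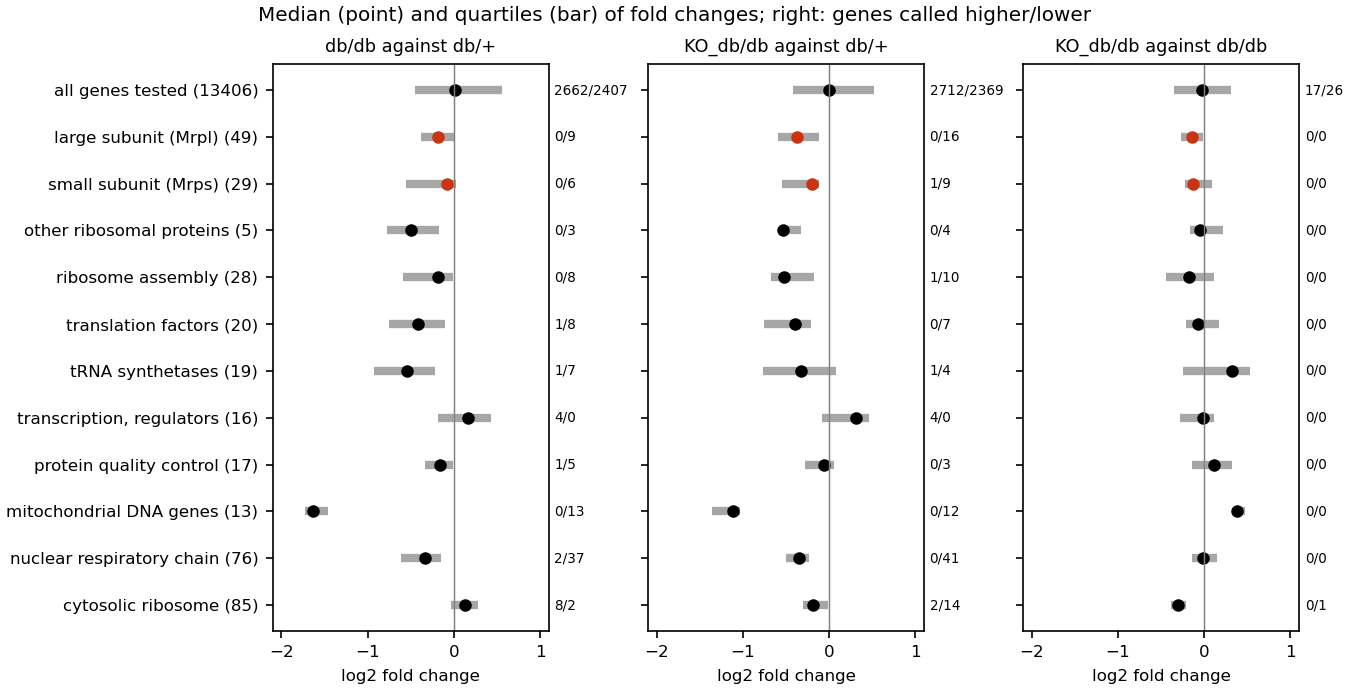
Median (point) and quartiles (bar) of the log2 fold changes of each list in the 3 comparisons, with the number of genes tested in db/db against db/+ in brackets and the genes called higher and lower to the right of each panel. Large and small subunit genes (red) lie below the median of all genes in each panel, mitochondrial DNA genes are lowest in both comparisons with db/+ (-1.63 and -1.11), and the median of the transcription and regulator list is 0.16 and 0.31 in these.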

How the data were processed

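RNA of sorted β-cells from 7 mice was sequenced as poly-A libraries. The authors converted the reads with bcl2fastq 2.19 and quantified them against GRCm38 with kallisto 0.44.0, and deposited estimated counts per gene symbol, 1 column per library. These were rounded here to whole numbers. For every comparison, edgeR 4.0.16 (R 4.3.3) was run on the libraries of the 2 groups alone: filterByExpr with a minimum count of 10, TMM factors, glmQLFit and glmQLFTest, Benjamini-Hochberg over all genes tested, threshold 0.05. Standard errors are the fold change divided by the square root of F. DESeq2 1.42.0, other scalings, filters, thresholds, a mouse number block and fits leaving out each library were alternatives. CPM used TMM factors over the 7 libraries. With 27496645 to 35852785 counts per library, 3 counts correspond to 0.0721 to 0.123 CPM.

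The fit was tested on simulated data, in which the share of false calls was near the threshold when genes of like abundance shared a dispersion and above it when each gene had its own, so calls near the threshold are the least firm. Replicates differed beyond sampling noise, so each mouse counted as 1. Levels per kilobase, neighbours and shared 31-base words used the GENCODE annotation and transcripts of GRCm38. kallisto divides reads that fit several transcripts, which leaves genes that share sequence uncertain, and the counts keep no strand.

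The members and lists were chosen with earlier results of these data known. Members were named when they were among the 4 largest called changes in a direction of a comparison (for KO_db/db against db/db, the 3 largest fold changes in each direction), the 3 highest or lowest per kilobase, the Mrps18 paralogues, Mrps30 or Mrps36. Other called members are listed by symbol, and other genes were taken from the largest called changes of each list.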

Additional observations from a re-analysis of the deposited data

How the results depend on the processing

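Of 250 recomputed values of the comparisons, 211 moved by less than the spread between libraries or, for counts, by less than 1.5 times. They include a setting with all matching symbols, which held the same 78 genes as the main fit, so its values could not move. The large minus small difference in KO_db/db against db/db, at -0.00596, changed sign in 6 of its alternatives, at 0.0467 without db/db mouse 2, 0.0388 without KO_db/db mouse 1, 0.0257 by place in the ribosome, 0.0136 with library size alone, 0.0083 with pseudogene copies added and 0.00212 with the replicate block. Without a filter on low counts 1 member was called higher in db/db, 0 higher in KO_db/db against db/+ and 1 lower in KO_db/db against db/db. At an adjusted p under 0.01 the members called lower were 7 in db/db (8.97%, against 8.16% of all genes) and 12 in KO_db/db against db/+ (15.4%, against 6.89%), with 0 higher. With library size alone 25 members were higher and 2 lower in db/db, with a median of 0.322 and a summed log2 ratio of 0.274. With that setting KO_db/db against db/+ gave 8 lower, a median of -0.0765 and a sum of -0.105, and KO_db/db against db/db gave 3 lower, a median of -0.381 and a sum of -0.379. This setting moves the median of all genes by 0.49, 0.22 and -0.25. With insulin, mitochondrial DNA, acinar and Reg genes removed and library size alone, 0 were higher in KO_db/db against db/+. By place in the ribosome the large minus small difference in KO_db/db against db/+ was -0.116. Library size alone, removal of the abundant genes, pseudogene copies and the ratio variants were chosen after seeing the data.

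Leaving out 1 library at a time, the members called lower were 9 to 17 in db/db, 13 to 26 in KO_db/db against db/+ and 0 to 1 in KO_db/db against db/db, and those called higher 0 to 1, 0 and 0. Without 1 of the db/+ libraries, 11.5 to 16.7% of the members and 11 to 15% of all genes were called lower in db/db. In KO_db/db against db/+ these shares were 21.8 to 33.3% and 11 to 16.4%. Over all fits leaving out 1 library, medians ranged from -0.318 to -0.110, from -0.356 to -0.269 and from -0.173 to -0.0652. Large minus small differences ranged from -0.126 to -0.00623, from -0.180 to -0.0989 and from -0.129 to 0.0467, and summed log2 ratios from -0.270 to -0.112, from -0.377 to -0.275 and from -0.220 to -0.0623. A group left with 1 library was assumed to vary like the other. Apart from the values stated as following from the setting itself, the cause was not tested. Of the 743 recomputed values of named and called genes, 109 lost the threshold, 4 gained it and 0 changed sign.

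Mouse numbers are shared between groups in the labels but mark no litter or day. Deviations of same-numbered libraries correlated at -0.0697 for KO_db/db and db/db, at -0.17 and -0.176 for KO_db/db and db/+, and at 0.142 and 0.111 for db/db and db/+. With the replicate block 13, 22 and 0 members were called lower and 0 higher in each comparison, and calls over all genes went from 5069 to 4516, from 5081 to 3786 and from 43 to 22. The 13 and 22 were 16.7 and 28.2% of the members, where 15.7 and 12.6% of all genes were called lower.

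Groups held 2 or 3 mice, and the lowest value of a member in a library was 0.511 CPM.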
